A study of Mus musculus with 18 samples.

Results

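Major histocompatibility complex (MHC) class I molecules carry peptides from the cytosol to the cell surface, where CD8+ T cells and natural killer cells read them. The proteasome cuts proteins into peptides, the Tap1 and Tap2 transporter moves them into the endoplasmic reticulum, tapasin holds the empty heavy chain beside the transporter, and the loaded heavy chain leaves with beta-2-microglobulin. The genes are inducible by interferons and by NF-kB, and NLRC5 works as a transactivator at their promoters. Resting brain tissue is known for low class I levels, with microglia among the cells that express it.

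The 10 genes described here were taken by name from the 36172 genes of the expression matrix, by a rule that names the genes and has no threshold on their values. The names were chosen with earlier results of these data known. They are the classical heavy chains H2-K1 and H2-D1, the light chain B2m, the peptide transporter genes Tap1 and Tap2, the tapasin gene Tapbp, the nonclassical heavy chains H2-T23, H2-Q4 and H2-M3, and the transactivator Nlrc5. All 10 passed the filter on low counts and were among the 14804 genes tested.

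RNA came from brains of Cx3cr1-Cre/Ert2+; NuTRAP+ mice, in which tamoxifen lets the cre act wherever Cx3cr1 is active, so that these cells make ribosomes that carry EGFP. All animals received tamoxifen for 5 days at about 3 months of age, then 5 mg/kg lipopolysaccharide (LPS, a bacterial cell wall component) or saline (PBS) by intraperitoneal injection 3 to 4 weeks later. Brains were taken 24 h after the injection. A hemisphere of each brain was homogenized, a sample of lysate was kept as input, and the ribosomes pulled down with an anti-GFP antibody gave the positive fraction (translating ribosome affinity purification, TRAP). The 4 groups are named by fraction and treatment. Input LPS and both PBS groups had 4 libraries each and Positive LPS had 5, from 9 animals, 6 female and 3 male, with both fractions taken from the same animal. Of the PBS animals 2 were male, and of the LPS animals 1 was male. The Cx3cr1 promoter also drives the cre in macrophages at the borders of the brain, so the tagged ribosomes are those of Cx3cr1-expressing cells and not of microglia alone.

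The 17 libraries used held between 22968939 and 35123345 counts, and the input library of LPS animal 271 was left out because it held 1252. Levels are given as normalised counts, that is, estimated counts divided by the size factor of the library. The tissue and fraction labels were checked against marker genes. The summed level of 10 microglial markers lay between 12000 and 17400 in input and between 198000 and 274000 in the positive fraction. Summed astrocyte markers lay between 134000 and 158000 in input and between 136000 and 186000 in the positive fraction. Of the 9 astrocyte markers edgeR called 4 lower in the positive fraction in PBS animals and 5 lower in LPS animals. Only Slc1a2 was called higher, and it weighed most in the sum. Its mean was 59500 in Input PBS and 88000 in Positive PBS, where the sums had means of 137000 and 158000. Summed neuron markers lay between 205000 and 216000 in Input PBS and between 211000 and 244000 in Positive PBS, with 2 of 8 called higher by edgeR and the other 6 not called. All 7 oligodendrocyte markers were lower in the positive fraction than in input. In bulk RNA of this kind, fewer cells of a type and less RNA per cell cannot be told apart.

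The promoters of 8 of the 10 genes were found in the RefSeq promoter table (GRCm38.p6), and Tap2 and Nlrc5 were not in it. The 200 bases before the gene start are shown for 6 of them, because 4 share a motif spacing and the other two, H2-Q4 and H2-T23, are heavy chain genes without it. H2-K1 has a pair of starts in the table, 14 bases apart, and the stretch before the more downstream start is printed. Capitals mark every match, on either strand, to exact letter patterns. They are GAAANNGAA (a form of the interferon response core), TTCNNNGAA (the core of the gamma-activated site) and GGGGATTCC (a kappa B core). CCAAT (the Y box core, read as ATTGG on the other strand) and TGACG (the core of the X2 box) are the others.
H2-K1, chr17:34000334-34000533, strand minus: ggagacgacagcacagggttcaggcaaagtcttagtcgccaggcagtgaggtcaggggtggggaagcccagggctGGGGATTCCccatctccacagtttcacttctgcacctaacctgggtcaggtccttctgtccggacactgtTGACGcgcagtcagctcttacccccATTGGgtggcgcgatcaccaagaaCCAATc
H2-D1, chr17:35262894-35263093, strand plus: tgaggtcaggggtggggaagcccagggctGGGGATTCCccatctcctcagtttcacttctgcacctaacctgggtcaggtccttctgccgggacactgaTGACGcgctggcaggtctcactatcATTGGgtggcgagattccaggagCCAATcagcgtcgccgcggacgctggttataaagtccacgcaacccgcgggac
B2m, chr2:122147487-122147686, strand plus: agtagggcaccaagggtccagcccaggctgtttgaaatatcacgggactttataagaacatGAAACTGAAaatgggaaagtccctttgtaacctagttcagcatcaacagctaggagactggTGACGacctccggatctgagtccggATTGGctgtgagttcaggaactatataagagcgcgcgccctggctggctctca
H2-M3, chr17:37270034-37270233, strand plus: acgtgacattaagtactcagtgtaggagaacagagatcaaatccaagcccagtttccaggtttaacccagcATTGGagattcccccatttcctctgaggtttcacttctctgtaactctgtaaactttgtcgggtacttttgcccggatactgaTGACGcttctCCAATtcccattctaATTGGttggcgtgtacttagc
H2-Q4, chr17:35379417-35379616, strand plus: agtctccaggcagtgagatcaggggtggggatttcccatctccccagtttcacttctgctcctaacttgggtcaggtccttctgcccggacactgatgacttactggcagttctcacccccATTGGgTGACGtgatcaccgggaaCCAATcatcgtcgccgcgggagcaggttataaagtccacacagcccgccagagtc
H2-T23, chr17:36032702-36032901, strand minus: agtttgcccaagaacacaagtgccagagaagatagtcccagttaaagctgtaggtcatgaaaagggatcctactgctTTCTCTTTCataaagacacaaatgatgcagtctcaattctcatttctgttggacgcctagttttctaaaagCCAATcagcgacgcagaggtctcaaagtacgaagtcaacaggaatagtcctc

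Searched over the whole table window of 300 bases (250 before the gene start and 50 after it), CCAAT was present in 8 of 8 promoters and TGACG in 6 of 8, against 37.4% and 20.8% of all 32851 promoters of that length. The kappa B core was found in H2-K1 and H2-D1, and in 0.25% of all promoters. In both genes its first base lay 70 bases before the first base of TGACG. GAAANNGAA was found in B2m and H2-T23 (8.56% of all promoters) and TTCNNNGAA in H2-M3, just upstream of the printed stretch (8.30% of all promoters). The printed stretches of H2-K1, H2-D1, H2-M3 and H2-Q4 hold tttcacttc, a related run of letters that GAAANNGAA does not match. Its share of all promoters was not counted. In H2-K1, H2-D1, B2m and H2-M3 the first base of TGACG lay exactly 25 bases before the first base of ATTGG. That spacing was chosen after the sequences had been seen. In this orientation 19 of the 32851 promoters held it, or 0.0578%, and they belonged to 16 genes. X and Y boxes at a fixed spacing are the textbook docking platform of NLRC5 and, at class II genes, of CIITA. In H2-Q4 TGACG lay after ATTGG, with first bases at -73 and -79 from the gene start. At 25 bases before that ATTGG, H2-Q4 reads tgact, which differs from TGACG in the last letter. H2-T23 held CCAAT without TGACG. Only these exact letters were searched, so other forms of the elements, kappa B included, were not looked for. A match describes letters in a window, and says nothing about binding in these brains.

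**Figure D1:**
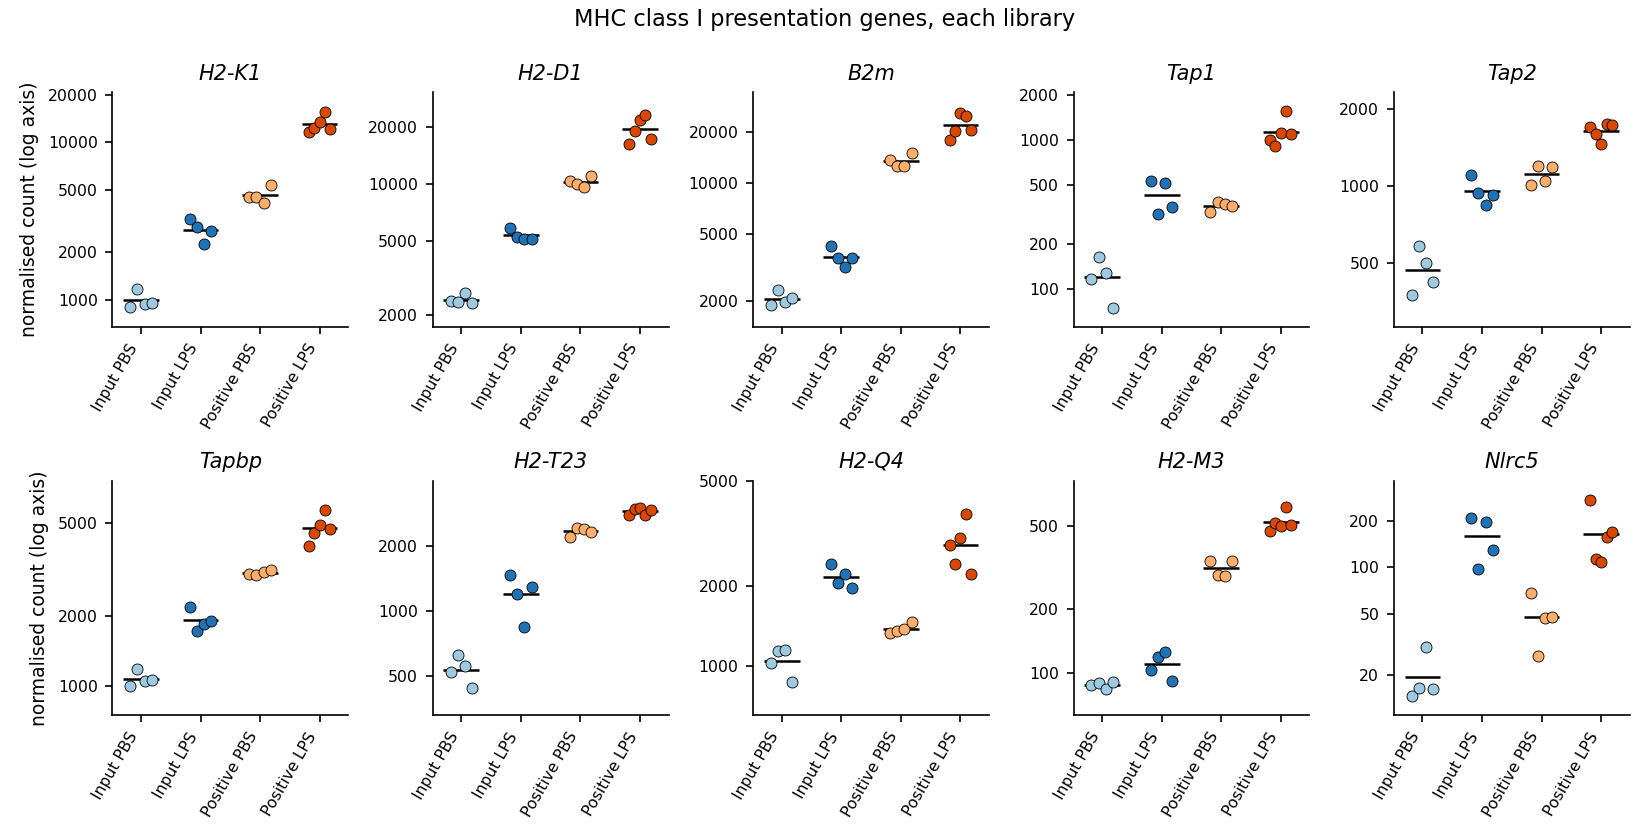
Normalised count of each of the 10 genes in each of the 17 libraries, by group, on a log axis, with points for libraries and bars for group means. Every Positive LPS library lies above every Positive PBS library, and every Input LPS library above every Input PBS library, for each of the 10 genes.

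The first question was which of the genes answered LPS in the positive fraction. Of the 10 genes, 9 were higher in Positive LPS than in Positive PBS, between 1.48-fold and 3.47-fold, against 19.0% of all genes tested. A gene was called at an edgeR quasi-likelihood Benjamini-Hochberg adjusted p below 0.05 and a log2 fold change beyond 0.32 in either direction. The median log2 fold change of the 10 was 0.83, where that of all genes tested was 0.01. The exception was H2-T23, whose fold of 1.24 fell just under the limit. For all 10 genes each Positive LPS library was above each Positive PBS library, a pattern found in 17.1% of the genes tested. In input, 9 of the 10 were also higher after LPS (7.16% of all genes tested), the median was 1.09 against 0.00, and the gene not called was H2-M3. The groups did not overlap for any of the 10 in input, which held for 12.6% of the genes tested.

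The classical heavy chains bind the peptide and are what CD8+ T cells see. H2-K1 (gene 14972, chr17:33996012-34000333, minus strand) had 4482, 4515, 4100 and 5351 normalised counts in the Positive PBS libraries of animals 268, 272, 273 and 506. In Positive LPS it had 11640, 12380, 13420, 15590 and 12160 counts in animals 266, 267, 270, 271 and 507. The groups were far apart, and animal 271 was the highest. It was 2.83-fold higher after LPS (SE 0.114 on the log2 scale, adjusted p = 2.58e-08). In input the 4 PBS libraries held 902.8, 1179, 937.9 and 957.0 counts and the 4 LPS libraries 3278, 2890, 2253 and 2733. The log2 change there was 1.49 (SE 0.122, adjusted p = 2.38e-07). The difference between the fractions was 0.01, with a 95% interval from -0.35 to 0.37.

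H2-D1, the other classical heavy chain, started from a higher level. Positive PBS libraries held 10330, 10030, 9695 and 11040 counts, and Positive LPS libraries 16280, 19090, 21790, 23180 and 17410. The groups were well separated, and animals 270 and 271 stood highest. H2-D1 rose by 0.93 on the log2 scale (SE 0.0923, adjusted p = 5.2e-07). Input libraries held between 2317 and 2617 counts in PBS animals and between 5105 and 5849 in LPS animals, a rise of 1.14 (SE 0.0978, adjusted p = 3.34e-07). Of the words of 42 bases in the H2-D1 transcript, the length of a trimmed read, 19.3% also occur in transcripts of other genes, and for H2-K1 13.8% do. How such reads were shared out between genes was not tested.

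B2m, the light chain that class I heavy chains need, was the most abundant of the genes per kilobase in all 4 groups. It held 13620, 12590, 12540 and 14940 counts in Positive PBS and 17910, 20060, 25660, 24740 and 20550 in Positive LPS. No LPS library reached down to the PBS range, although the gap was narrower than for H2-K1 and H2-D1. Its log2 rise was 0.70 (SE 0.107, adjusted p = 6.07e-05). The input libraries gave 0.82 (SE 0.114, adjusted p = 7.81e-05). No word of its transcript occurs in another gene's.

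The transporter is a pair of related proteins, and the 2 genes differed in size of response. Tap1 had 330.8, 381.7, 371.9 and 361.5 counts in Positive PBS, a tight group, and 1001, 907.8, 1111, 1577 and 1095 in Positive LPS. It rose by 1.65 (SE 0.196, adjusted p = 5e-06), or 3.15-fold. Tap2 went from 1013, 1202, 1048 and 1188 counts to 1699, 1598, 1462, 1751 and 1734, a change of 0.57 (SE 0.114, adjusted p = 0.000729), or 1.48-fold. After LPS the Tap1 libraries spread from 907.8 to 1577 with animal 271 at the top, while those of Tap2 stayed between 1462 and 1751. In input Tap1 rose by 1.83 (SE 0.216, adjusted p = 1.43e-05) and Tap2 2.03-fold (SE 0.122 on the log2 scale, adjusted p = 1.38e-05). Input Tap1 was the lowest in PBS animal 506, with 74.50 counts against 116.1, 163.5 and 128.5 in the others. The difference between fractions for Tap2 was -0.46 (95% interval from -0.82 to -0.10, adjusted p = 0.117) and was not called. It was called when animal was a fixed block in the model (-0.49, adjusted p = 0.0171).

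Tapbp, which bridges the transporter and the empty heavy chain, had the tightest PBS group, at 3035, 2999, 3085 and 3129 counts in the positive fraction. Positive LPS held 3963, 4533, 4875, 5694 and 4686. The LPS libraries thus spread far more than the PBS libraries, and all were higher. Tapbp thus rose by 0.63 on the log2 scale (SE 0.0905, adjusted p = 2.79e-05). Input showed a rise of 0.83 (SE 0.0964, adjusted p = 1.02e-05).

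The nonclassical heavy chains behaved differently from each other. H2-T23 encodes Qa-1, the ligand of the NKG2 receptors of natural killer cells and of some T cells. In the positive fraction it moved from 2182, 2412, 2384 and 2318 counts in PBS animals to 2774, 2936, 2991, 2770 and 2922 in LPS animals. The groups did not overlap, but the step was small, 0.31 on the log2 scale (SE 0.118, adjusted p = 0.0449). In input the counts went from 522.7, 624.9, 557.0 and 442.2 to 1465, 1202, 845.4 and 1294, a rise of 1.16 (SE 0.127, adjusted p = 5.57e-06). Animal 270 was the lowest of the LPS inputs.

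H2-T23 was the 1 gene of the 10 called for the difference between the fractions. Its LPS effect in the positive fraction was lower than that in input by 0.85 on the log2 scale (SE 0.174, 95% interval of the difference from -1.23 to -0.48, adjusted p = 0.00508). Of all genes tested 1.42% were called lower in this difference and 5.46% higher, and the median over the 10 genes was -0.18 against -0.02. Without the 4 libraries of animals 506 and 507 the difference was -0.74 (adjusted p = 0.0857) and was no longer called. H2-T23 also shares more of its sequence than any other of the genes, with 36.2% of its 42-base words found elsewhere, mostly in H2-T-ps (17.7%), H2-Q1 (9.36%) and Gm7030 (8.74%). The part of shared reads in this result was not tested. The summed level of 10 endothelial markers lay between 3100 and 4570 in Input PBS and between 4110 and 6420 in Input LPS, and between 8020 and 12300 in Positive PBS and 6900 and 11800 in Positive LPS. Single endothelial markers went both ways. After LPS edgeR called 2 of the 10 higher and 1 lower in input (7.16% and 5.26% of all genes tested). In the positive fraction it called 1 higher and 4 lower (19.0% and 14.9%). For the difference 0 were called, and their median was -0.82. The part of endothelial cells in this result was not tested.

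H2-Q4 is another nonclassical chain. Positive PBS held 1331, 1359, 1374 and 1469 counts and Positive LPS 2856, 2434, 3050, 3753 and 2225. Input PBS held 1031, 1136, 1151 and 871.1 and Input LPS 2422, 2049, 2226 and 1964. The fractions were separate in PBS animals and overlapped in LPS animals, and in each fraction every LPS library was above every PBS library. H2-Q4 rose by 1.05 among pulldown libraries (SE 0.124, adjusted p = 3.84e-06) and by 1.05 among input libraries (SE 0.131, adjusted p = 2.4e-05), and the difference was 0.00 with an interval from -0.39 to 0.39. Of its 42-base words 32.0% occur in other genes, with H2-Q6 first at 10.7%.

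H2-M3, which presents peptides that start with formyl-methionine, as bacterial and mitochondrial proteins do, showed its LPS effect in the positive fraction. It went from 338.5, 290.1, 286.8 and 341.0 counts to 473.0, 513.1, 497.5, 613.5 and 505.3, a change of 0.73 (SE 0.113, adjusted p = 6.7e-05). In input the 4 PBS libraries held between 83.79 and 90.74 counts and the LPS libraries 103.4, 118.9, 125.1 and 91.66. Animal 507 was only just above the PBS range. The log2 fold change in input was 0.32 (SE 0.129, adjusted p = 0.109, 95% interval from 0.04 to 0.60) and was not called. The difference between the fractions, 0.41, had an interval from 0.04 to 0.78 and an adjusted p of 0.187, so the effects were not shown to differ.

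Nlrc5, the transactivator, was the rarest of the genes and the one with the largest folds. Positive PBS libraries held 67.70, 26.72, 47.14 and 47.26 counts and Positive LPS libraries 274.0, 113.2, 108.8, 156.1 and 168.4. Input went from 14.62, 16.55, 30.47 and 16.24 counts to 208.6, 97.67, 196.7 and 130.3. At these low counts the libraries of a group differed widely, yet the LPS and PBS groups stayed apart in both fractions. Nlrc5 rose by 1.80 among the pulldown libraries (SE 0.325, adjusted p = 0.000326). Its rise among the input libraries was 3.02 (SE 0.366, adjusted p = 1.77e-05), or 8.08-fold. The difference of -1.22 had a wide interval, from -2.28 to -0.16, and was not called (adjusted p = 0.157).

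**Figure D2:**
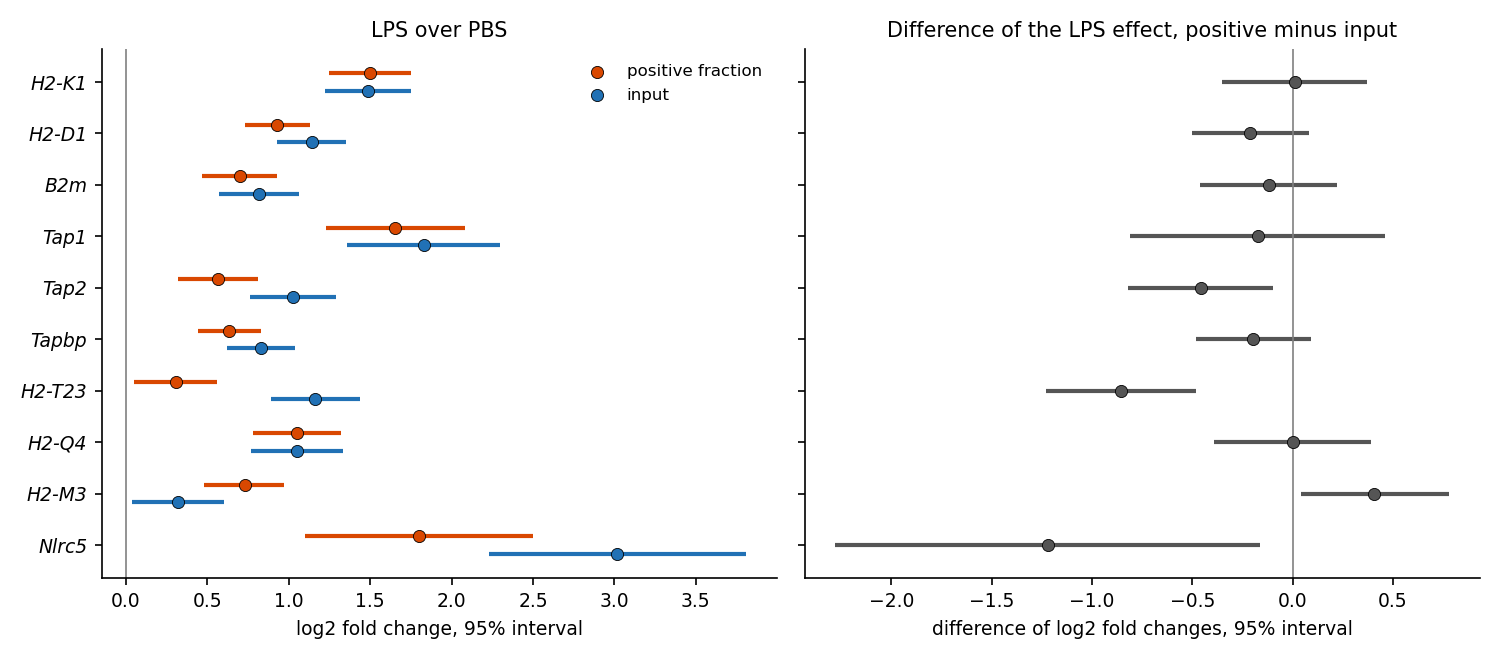
Left, log2 fold change of LPS over PBS with its 95% interval for each gene in both fractions; right, the difference of the 2 effects, positive minus input, with its 95% interval. The difference for H2-T23 runs from -1.23 to -0.48, and those of Tap2, H2-M3 and Nlrc5 also leave out 0 but had edgeR adjusted p values of 0.117, 0.187 and 0.157.

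The second question was how far the pulldown enriched these transcripts. In PBS animals 10 of the 10 genes were higher in the positive fraction than in input (21.0% of all genes tested), with a median log2 ratio of 1.71 against -0.00 over all genes. B2m led with 2.69 (SE 0.114, adjusted p = 3.12e-12), or 6.46-fold, followed by H2-K1 at 2.21, H2-T23 at 2.11 and H2-D1 at 2.09. H2-M3 stood at 1.84, Tap1 at 1.58, Tapbp at 1.51 and Nlrc5 at 1.27, and Tap2 was 2.37-fold higher. H2-Q4 was the least enriched, with 0.40 (SE 0.131, adjusted p = 0.0184). Every Positive PBS library was above every Input PBS library for 9 of the 10, a pattern seen in 25.2% of all genes tested. Nlrc5 was the exception, because input animal 273 with 30.47 counts exceeded positive animal 272 with 26.72. For comparison, the median enrichment in PBS animals was 4.26 for the 10 microglial markers and 4.02 for 6 markers of macrophages at the borders of the brain. It was 1.45 for the 10 endothelial markers, of which 9 were called higher. It was 0.11 for neuron, -0.24 for astrocyte and -2.07 for oligodendrocyte markers. Which cells account for the enrichment of the 10 genes was not tested.

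In LPS animals 9 of the 10 were enriched (27.6% of all genes tested) and the median was 1.36 against -0.03. H2-K1 was at 2.23 (SE 0.114) and B2m at 2.57 (SE 0.108). H2-M3 stood at 2.25 (SE 0.117), H2-D1 at 1.88 (SE 0.0924), Tap1 at 1.41 (SE 0.194), Tapbp at 1.31 (SE 0.0905) and H2-T23 at 1.26 (SE 0.118). Tap2 was at 0.79 (SE 0.114) and H2-Q4 at 0.40 (SE 0.123, adjusted p = 0.00909). Nlrc5 was not called, with 0.05 (SE 0.301, 95% interval from -0.60 to 0.70, adjusted p = 0.901). The libraries of the 2 fractions were fully separated for 8 of the 10, all but H2-Q4 and Nlrc5, against 25.2% of all genes tested. The call for H2-Q4 was lost when libraries were scaled by their totals, at 0.29 in PBS and 0.22 in LPS animals, a scaling that moved the median of all genes to -0.12 and -0.21, and in LPS animals also with animal as a block (0.28). It was lost as well with all 18 libraries (0.28 in PBS and 0.29 in LPS animals), in PBS animals without animals 506 and 507 (0.29) or without Input PBS animal 506 (0.32, adjusted p = 0.069), and in LPS animals without Positive LPS animal 271 (0.29).

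Both fractions came from the same homogenate, so the ratio could be taken within each animal. For B2m the log2 ratio was 2.85, 2.42, 2.65 and 2.84 in PBS animals 268, 272, 273 and 506, and 2.08, 2.48, 3.01 and 2.51 in LPS animals 266, 267, 270 and 507. Treated and untreated animals were interleaved, as they were for H2-K1, H2-D1, Tap1, Tapbp and H2-Q4. For H2-T23 the PBS ratios were 2.06, 1.95, 2.10 and 2.39 and the LPS ratios 0.92, 1.29, 1.82 and 1.18. Every LPS animal thus lay below every PBS animal for H2-T23. Over the genes above 0 in all libraries used, 8.43% had every LPS animal lower and 11.5% every LPS animal higher. Every LPS animal was lower for Tap2 too, with ratios from 1.04 to 1.499 in PBS animals and 0.62, 0.76, 0.79 and 0.91 in LPS animals. It was so for Nlrc5 as well, where the PBS ratios were 2.21, 0.69, 0.63 and 1.54 and the LPS ratios 0.39, 0.21, -0.85 and 0.37. H2-M3 went the other way, from a mean of 1.83 ± 0.11 (SD, n = 4) to 2.19 ± 0.20 (n = 4), with no overlap between the groups. Of these 4 genes only H2-T23 was called for the difference between fractions in the reported edgeR fit, which has no animal term. The edgeR fit with animal as a fixed block also called Tap2 (-0.49, adjusted p = 0.0171).

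**Figure D3:**
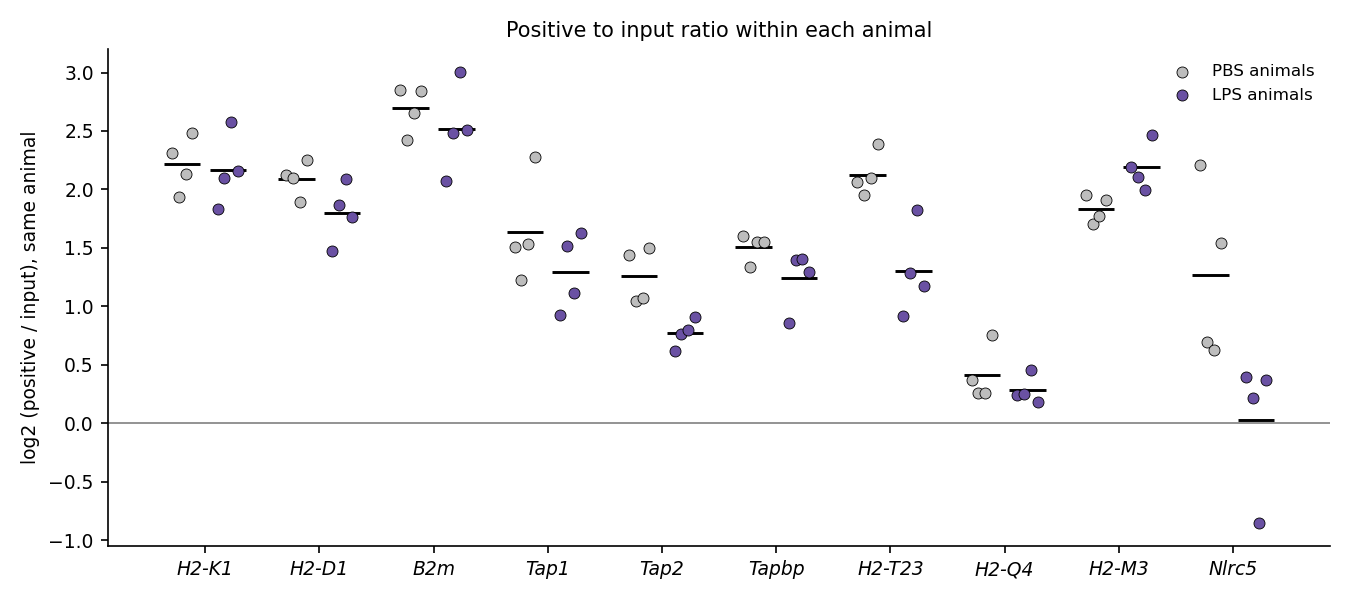
Log2 ratio of the positive fraction to input within each animal, for the 4 PBS animals and the 4 LPS animals with both libraries, as points with bars for means. PBS and LPS animals do not overlap for Tap2, H2-T23, Nlrc5 (all lower after LPS, as in 8.43% of genes) and H2-M3 (higher after LPS, as in 11.5%). Of these, H2-T23 alone was called for the difference in the fit without an animal term, and Tap2 also with animal as a fixed block.

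Levels of different genes were compared per kilobase of transcript. In Positive PBS the order was B2m with 15600 normalised counts per kb, H2-D1 with 4890, H2-K1 with 2850, H2-T23 with 1580, Tapbp with 1060, H2-Q4 with 771, Tap2 with 323, H2-M3 with 218, Tap1 with 122 and Nlrc5 with 6.80. No neighbours in that order overlapped in range. In Positive LPS, H2-D1 at 9300 and H2-K1 at 8050 per kb did overlap, as did the run of H2-T23 at 1960, Tapbp at 1640 and H2-Q4 at 1600, and the run of Tap2 at 479, Tap1 at 386 and H2-M3 at 362. B2m stayed first at 25300 and Nlrc5 last at 23.6. In Input PBS H2-Q4 at 584 per kb overlapped H2-K1 at 614 and stood above Tapbp at 372 and H2-T23 at 365, which overlapped each other, and H2-M3 and Tap1 stayed below Tap2.

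In Input LPS animal 266 had the highest level for 9 of the 10 genes. In Positive LPS animal 271 was highest for 7, and animal 266 was lowest for 5. The PBS groups were more divided, with animal 272 highest for 6 and animal 273 for 3 in Input PBS, and animal 506 highest for 6 and animal 272 for 3 in Positive PBS. Across the 17 libraries, the correlation of a gene's standardised log2 level with the mean of the other 9 ran from 0.70 for Nlrc5, 0.81 for H2-Q4 and 0.89 for H2-M3 to 0.98 for H2-D1 and Tapbp and 0.99 for H2-K1. The points share libraries and the contrast of fraction and treatment, so these values are descriptions. Outside the pathway lists, the genes whose profile was most like the mean of the 10 were Tnfrsf1a (Pearson r = 0.994 over 17 libraries), Trim25 (0.986), Gpr65 (0.985), Gbp7 (0.984) and Ifi204 (0.983). Tnfrsf1a, a receptor of TNF, rose after LPS by 1.11 (SE 0.0854) with the pulldown and by 1.64 (SE 0.093) without it. Tnfrsf1a was picked for its profile over these same libraries, so its rises follow from that choice.

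Of the 10 genes 8 lie within 3.36 Mb of chromosome 17, from 33919478 to 37274485 of mm10, which is the mouse MHC. B2m lies on chromosome 2 and Nlrc5 on chromosome 8. The stretch holds 249 listed genes, of which 117 were tested. Of the other 109, 26 were higher in the positive fraction after LPS (23.9%, against 19.0% of all genes) and 23 lower, and 14 were higher in input (12.8%, against 7.16%) and 6 lower. Inside it Tap1, Tap2, Psmb8 and Psmb9 form a cluster, and Psmb9 and Tap1 start 226 bases apart on opposite strands. Psmb9 and Psmb8 encode catalytic subunits of the immunoproteasome, which cuts peptides that fit class I grooves. Although Tap1 and Psmb9 are head to head, in the positive fraction Tap1 rose by 1.65 while Psmb9 was at 0.16 (SE 0.218, adjusted p = 0.585). Psmb9 counts ranged from 349 to 531 in Positive PBS and from 316 to 640 in Positive LPS, which overlap widely. In input it rose by 1.01 (adjusted p = 0.0148).

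The rest of the pathway was followed through 92 further genes in 9 lists, of which 69 were tested. In the positive fraction 37 were higher and 4 lower after LPS, against 19.0% and 14.9% of all genes tested. In input 18 were higher and 4 lower, against 7.16% and 5.26%. These counts include H2-M2 as a riser in the positive fraction and Ciita as a faller in both fractions. Each passed the filter only through a group where it was high, so its calls depend on that choice. Positive over input, 42 were higher and 2 lower in PBS animals (21.0% and 18.8% of all genes) and 48 higher and 5 lower in LPS animals (27.6% and 25.8%). The difference between fractions was called higher for 8 and lower for 1 (5.46% and 1.42% of all genes). These shares of all genes are also the background for the list and marker counts that follow.

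Of the 6 immunoproteasome and PA28 genes 4 rose in each fraction. Psmb8, Psmb10 and Psme1 rose in both, Psme2 was called in the positive fraction and Psmb9 in input. Psmb8 rose by 0.85 in the positive fraction (adjusted p = 0.000297) and by 2.11 in input (adjusted p = 3.23e-07), from 109 to 149 counts in Input PBS to between 366 and 674 in Input LPS. Its difference of -1.26 was called (adjusted p = 0.00279). Psmb10, the remaining immunoproteasome catalytic subunit, rose by 0.81 (adjusted p = 1.77e-05) and 0.49 (adjusted p = 0.00868). Psme1 and Psme2, the PA28 cap that speeds up peptide release, differed from Psmb8 in this. They rose 2.06-fold and 2.47-fold in the positive fraction, and their differences were 0.54 (adjusted p = 0.0302) and 0.91 (adjusted p = 0.0126). The constitutive proteasome list held 4 risers of 5 in the positive fraction, with Psme4 the highest at 0.67, and 0 of 5 in input by edgeR, where 1 of 5 had an unadjusted p under 0.05.

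Of 12 endoplasmic reticulum chaperone, translocon and trimming genes 7 rose in the positive fraction. The aminopeptidase Erap1, which trims peptides to class I length, rose by 1.04 (adjusted p = 9.21e-06) there and by 0.99 (adjusted p = 0.000101) in input. The translocon genes Sec61a1, Sec61b and Sec61g rose by 0.79, 0.93 and 0.69 in the positive fraction, had input values of -0.00, -0.02 and 0.11, and were called for the difference, as was the glucosidase subunit Prkcsh (0.35, adjusted p = 0.0307). Canx had the lowest value in the positive fraction, -0.06 (adjusted p = 0.489). Calr, the chaperone of the peptide-loading complex, fell by 0.54 in input (adjusted p = 0.0291) and had a value of 0.11 in the positive fraction. Of the 7 genes listed as cytosolic peptidases 3 rose and 1 fell in the positive fraction. Lnpep had the highest value there, 0.84, and Npepps fell in both fractions, by 0.54 and by 0.42. Where in the cell these peptidases act was not tested.

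Of the 21 other class I heavy chain names 10 were tested, and 5 rose and 1 fell in the positive fraction. H2-Q7, a Qa-2 gene, rose by 2.15 (adjusted p = 1.42e-05) and by 1.86 in input (adjusted p = 0.000705). H2-M2 had the highest fitted value, with 0 to 10.5 counts in Positive PBS and 23.2 to 68.7 in Positive LPS. It stayed at or below 4.61 counts in every input library. H2-M2 passed the filter on low counts only through Positive LPS, where it is high, so its call depends on that choice. H2-T24 fell by 0.77 in the positive fraction (adjusted p = 0.0282), from between 586 and 763 counts to between 200 and 537. H2-Q1, which passed the filter only through Input PBS, was the lowest in input, at -0.92 (adjusted p = 0.0908). Of the class I-like molecules Procr, the endothelial protein C receptor, rose by 0.80 and 1.72, and Fcgrt, the neonatal Fc receptor, fell by 0.61 and 0.54. Words shared with relatives were counted only for the 10 genes described here. How far shared reads affect the levels in this paragraph was not tested, and those levels carry that uncertainty.

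Upstream of the genes, 10 of 13 interferon signalling genes rose in the positive fraction and 5 in input. Irf9, part of the factor that type I interferon assembles, was the highest in both, at 0.91 (adjusted p = 4.84e-07) and 1.10 (adjusted p = 4.16e-07). Irf1, which binds class I promoters, rose by 0.66 (adjusted p = 7.48e-05) and 1.03 (adjusted p = 5.72e-06). Jak1 had the lowest value in the positive fraction, 0.05, and Ifngr2 the lowest in input, -0.16. Ifngr2 was called for the difference, having risen by 0.34 in the positive fraction.

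Of 9 partners of transactivation 1 rose and 1 fell in each fraction. Atf1 rose by 0.45 in the positive fraction and Rfx5, a subunit of the complex that holds NLRC5 at the X box, by 0.39 in input (adjusted p = 0.00383). Ciita, the class II counterpart of Nlrc5, fell by 1.44 in the positive fraction (adjusted p = 0.00767), from between 12.8 and 43.7 counts to between 3.72 and 14.7. It fell by 1.41 in input (adjusted p = 0.0138). Ciita passed the filter only through Input PBS, where it is high, so its calls, the only falls in this list, depend on that choice. Of the 12 genes listed as class I receptors only Lilrb3 and Lilrb4, both inhibitory, were tested. Whether either binds class I was not tested. Lilrb4 rose 21.5-fold with the pulldown and 8.57-fold in input, Lilrb3 rose 9.17-fold and 6.03-fold, and Lilrb4 was called for the difference.

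**Figure D4:**
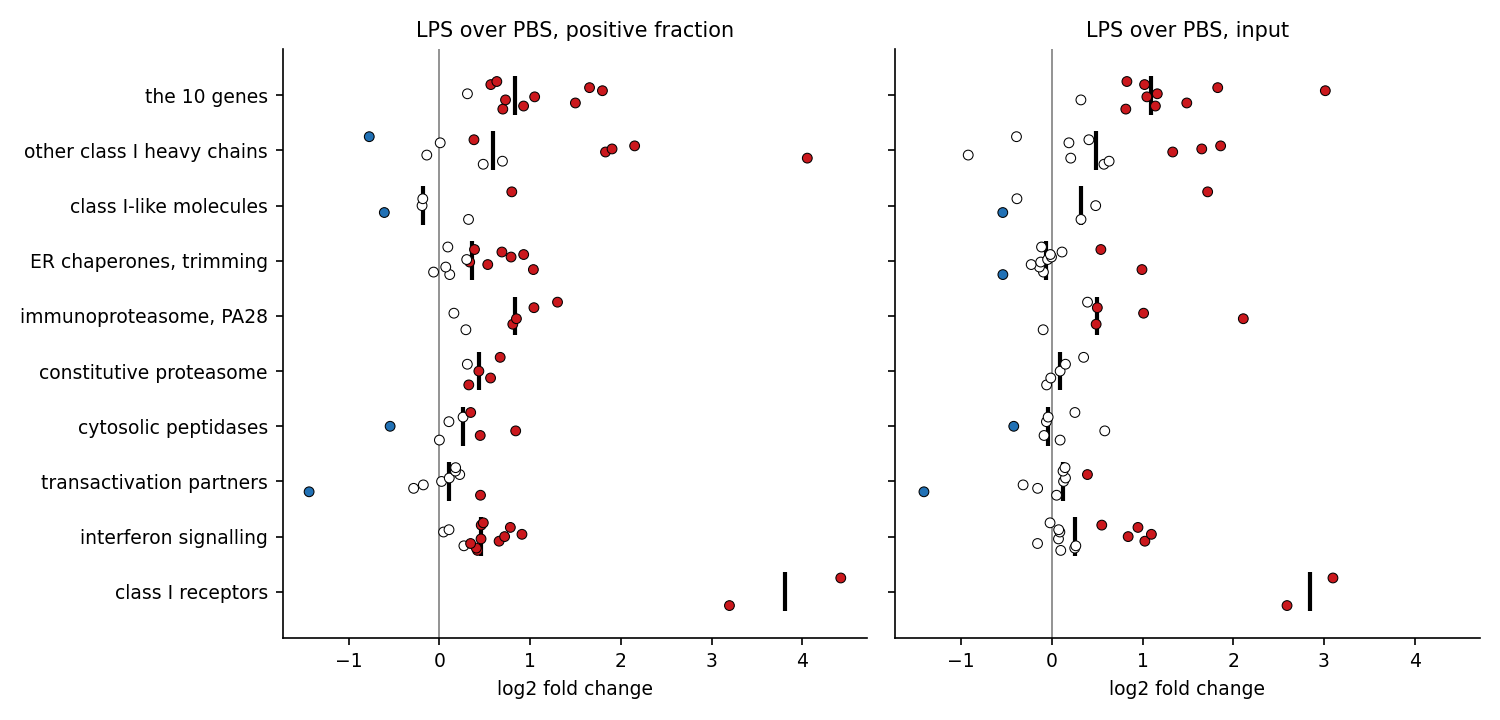
Log2 fold change of LPS over PBS for the tested genes of the pathway lists, in the positive fraction (left) and input (right). Each point is a gene, red where called higher, blue where called lower and white where not called, bars are list medians, and 9 of the 10 genes are red on each side.

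Summed marker RNA of other cells that carry class I was also compared between treatments, which does not count cells. The summed level of 8 neutrophil markers lay between 140 and 318 in Positive PBS and 429 and 1160 in Positive LPS, and between 468 and 794 in Input PBS and 768 and 1650 in Input LPS. S100a8 and S100a9 rose in both fractions and Cxcr2 was called in neither. Cxcr2 had means of 385 in Input PBS and 141 in Positive PBS, where the neutrophil sums had means of 642 and 203. S100a8 had a mean of 416 in Positive LPS, where the neutrophil sum had a mean of 809. Of the 6 neutrophil markers tested only S100a8 was called for the difference between fractions (2.72, adjusted p = 0.0141). In LPS animals S100a9 was lower in the positive fraction than in input, by 2.47, and S100a8 was not called. Retnlg, Ngp and Mmp8 were also called higher in both, but passed the filter only through LPS groups, so that no count of risers is drawn from them. Ly6g was at 0 in every group. The 6 markers of border-associated macrophages went from between 4790 and 9480 to between 3410 and 5690 in the positive fraction, with 4 of 6 called lower, and from between 392 and 580 to between 428 and 588 in input. Microglial markers summed to between 231000 and 273000 in Positive PBS and 198000 and 274000 in Positive LPS, with 3 of 10 called higher and 4 lower. The 10 T and NK cell markers summed to at most 407 in every library, with Trac at 0 in every group. Cd4 alone had means of 285 in Positive PBS and 192 in Positive LPS, where the sums had means of 338 and 245. Acta2, of the 6 pericyte and mural markers, was also at 0 in every group, although the other 5 were tested. A gene at 0 in every group is therefore not read as absence of a cell type. The 5 monocyte markers found summed to between 265 and 451 in Positive PBS and 228 and 554 in Positive LPS. The part of these cells in the LPS effects on the 10 genes was not tested.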

How the data were processed

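The authors trimmed the RNA-seq reads, aligned them directionally to mm10 in Strand NGS, and deposited estimated counts per gene. Fractional values made up 81.6% of those above 0 (tolerance 1e-06), so counts were rounded. The authors also deposited log2 values normalised with DESeq, which were not used here. The column of the Input LPS library of animal 271 held 1252 counts and was left out of the main analysis.

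Size factors were medians of ratios (0.764 to 1.32). A gene was tested if every library of some group exceeded 20 normalised counts. The fit was edgeR 4.0.16 (glmQLFit, glmQLFTest; R 4.3.3), with a coefficient for each of the 4 groups, which leaves 13 residual degrees of freedom. The study's filter, fold limit and adjustment were kept, and the count model takes the place of its analysis of variance. Calls needed a Benjamini-Hochberg adjusted p under 0.05 and a log2 fold change beyond 0.32, and every adjusted p printed is from that fit unless another is named. Standard errors came from the Fisher information times the quasi-dispersion, and 95% intervals from a t distribution on the residual degrees of freedom. Simulated data with known changes were used to test the code. Alternatives were DESeq2 1.42.0, TMM scaling, library totals, no filter, fewer or more libraries, sex as a term, limma 3.58.1 and edgeR fits with animal as a block, and leaving out each library.

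Fractions with the same animal number came from the same mouse. Deviations from the group means correlated within all 8 pairs, from 0.16 to 0.519. Labels name separate animals as replicates.

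Transcript lengths and 42-base words were read from GENCODE M21, with the longest basic coding transcript that has a RefSeq match, and promoters from RefSeq (GRCm38.p6). Named genes were the 10 members, the highest and lowest gene of each list for each LPS effect, every list gene called for the difference, Psmb8, Psmb9, Psmb10, Irf1 and a further gene that is not reported here, and the 5 genes with at least 100 mean counts most like the members. The genes with the motif spacing fall outside that rule. The lists, like the members, were chosen with earlier results of these data known, so list counts are descriptions. Names listed but not found in the file were H2-L, H2-Q8, H2-Q9, Pirb, Lilrb4a and Chil3, of which Pirb and Lilrb4a are listed as Lilrb3 and Lilrb4. Reads carry no molecular identifiers.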

Additional observations from a re-analysis of the deposited data

Results flagged for a closer look

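H2-T23 differed between the fractions in its LPS effect, by -0.85 on the log2 scale (edgeR, adjusted p = 0.00508). Its level after LPS rose in 4 of 4 input libraries above every PBS library.

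Of the 40 sets of libraries (10 genes in 4 groups), 2 held a library far from the rest of its group, where chance gives about 1 in 20. H2-M3 stood at 613.5 normalised counts in the Positive LPS library of animal 271, with the other 4 between 473.0 and 513.1. The LPS effect on H2-M3 in the positive fraction was called with and without that library. Nlrc5 stood at 30.47 counts in the Input PBS library of animal 273, with the other 3 between 14.62 and 16.55.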

How the results depend on the processing

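Over the 10 genes and 5 contrasts, 41 of 50 results kept their direction and their side of the threshold under every alternative run. The number called after LPS stayed between 9 and 10 in the positive fraction and at 9 in input, and for enrichment between 8 and 10 in PBS animals and 8 and 9 in LPS animals. H2-T23 passed the fold limit in the positive fraction with TMM scaling (0.33), all 18 libraries (0.36), sex as a term (0.34) and without animal 266 (0.33). Without animals 506 and 507 all genes called fell to 1077 for LPS in input (1839 in the reported fit) and to 323 for the difference between fractions (1018), 0 of the 10 genes and 3 further pathway genes were called for that difference (9 in the reported fit), and Nlrc5 lost its enrichment call in PBS animals (1.19). Further pathway genes called for the difference numbered 5 with library totals and 14 with DESeq2, and 5 to 15 leaving out 1 library, with 15 without Positive LPS animal 270 and 5 without Input PBS animal 273 or Input LPS animal 507. Of the 10 genes 1 to 2 were called for it leaving out 1 library, with Tap2 added without Input PBS animal 272.

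With animal as a fixed block, the pairing that both fractions share, 1915 genes, 2 of the 10 and 19 further pathway genes were called for the difference. H2-Q4 enrichment in LPS animals fell under the fold limit there (0.28), and beside that and Tap2 the block changed no other call of the 10 genes.

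Signs turned only where values were near 0. Nlrc5 in LPS animals, positive over input, was -0.12 with library totals, -0.031 with all 18 libraries, -0.046 without animals 506 and 507, and -0.21 to 0.21 leaving out 1 library. The difference between fractions was -0.054 with library totals and -0.051 with the block for H2-K1, and -0.061 and -0.127 for H2-Q4. Leaving out 1 library it was -0.082 to 0.096 for H2-K1 and -0.11 to 0.085 for H2-Q4. Library totals moved the median of all genes to -0.12 for enrichment in PBS animals and -0.21 in LPS animals, and -0.08 for the difference. The causes were not tested.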
